A study of Homo sapiens with 6 samples.

Results

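The genes described here act when a cell passes from G2 into mitosis and then divides. They are 42 genes chosen by name among the 58288 genes of the deposited expression values, and 41 of them were abundant enough to be tested. None was picked for how it changed, although the list was drawn up with earlier results of these libraries known. RNA was sequenced from single cell clones of K562, an erythroleukemic line of human origin, kept under 200 µg/ml G418 and stably expressing 3xFLAG-2KR-Myb-HA or 3xFLAG-ANAA-Myb-HA. In 2KR-MYB the lysines that accept SUMO are changed to arginine, and in ANAA-MYB the motif that binds SUMO is altered. All cells received the siRNA si2992, directed at the 3′-UTR of the endogenous MYB transcript, which the introduced MYB lacks, and RNA was taken 24 h later from 3 libraries of each rescue. Each mutant stands for 1 clone, so the mutant and the clone cannot be told apart, and p-values measure only the spread between replicates of these clones. Control, knockdown and WT-MYB libraries were not used here, so no level is set against the knockdown.

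Entry into mitosis is driven by CDK1 bound to cyclin A or cyclin B, which CDC25 phosphatases switch on by removing inhibitory phosphates. The spindle assembly checkpoint then restrains the anaphase-promoting complex until the kinetochores are attached, and the central spindle and contractile ring divide the cell. Most of these genes are transcribed late in the cycle through the MuvB complex with B-MYB and FOXM1, which acts at a short promoter element, the cell cycle genes homology region (CHR), often near CCAAT boxes bound by NF-Y. B-MYB, the product of MYBL2, is a relative of MYB. In bulk RNA, fewer cells in G2 and mitosis and less of these transcripts per cell cannot be told apart.

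The promoter element is shown first, because the choice of the genes did not use it. RefSeq promoters (GRCh38.p14), from 250 bases before to 50 bases after an annotated start, were matched for 35 of the 42 genes, with 46 promoters in all since some genes have several starts. Both strands were searched for the CHR as TTTGAA or TTCGAA, for CCAAT, and for AACGG, a core of sites bound by MYB proteins; a CHR match and AACGG can share 2 bases. The sequences are 30 bases on the strand of the gene, with the match in capitals, and show the CDC25 phosphatases, cyclin B2, the kinase PLK1 and the CKS partners of CDK1.
CDC25B, chr20:3796260-3796289 (+): ctgctgttatttTTCGAAtatataaggagg
CDC25C, chr5:138331817-138331846 (-): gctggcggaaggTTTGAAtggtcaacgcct
CCNB2, chr15:59105105-59105134 (+): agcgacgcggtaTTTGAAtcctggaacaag
PLK1, chr16:23678848-23678877 (+): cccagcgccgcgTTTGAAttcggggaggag
CKS1B, chr1:154974639-154974668 (+): gcgggcggcgtgTTTGAAagcgaggccaaa
CKS2, chr9:89311154-89311183 (+): cgggctgtcggaTTCAAAtccggatcgttg
In CKS2 the match lies on the opposite strand and so reads TTCAAA, and the promoters shown for CDC25B and CDC25C belong to starts inside these genes.

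A CHR match was found in 32 of the 46 promoters (69.6%), which belong to 28 of the 35 genes, and in 16.4% of all 35116 promoters of this length. In 17 of the 46 (37.0%) a match began 40 to 1 bases before the start, as in the 6 sequences shown, against 2.23% of all promoters; this stretch was picked after the positions were seen. CCAAT was present in 71.7% of the promoters of G2 and mitosis genes and in 34.6% of all promoters, and AACGG in 45.7% and 19.7%. Promoters of G1 and S phase genes held a CHR match in 3 of 26 (11.5%), CCAAT in 61.5% and AACGG in 38.5%, and AACGG was in 25.9% of the promoters of all tested genes. The windows of AURKB, CCNA2, CCNB1, CENPE, KIF20A, KIF2C and PTTG1 held no CHR match. These are matches of letters and not measured sites.

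Cell identity and MYB were checked before the comparison. The erythroleukemia markers GATA1, TAL1, KLF1 and TFRC and the globins HBG1, HBG2, HBE1 and HBZ stood between 17.6 and 1161 FPKM in every library. GATA1, KLF1 and TFRC were lower with 2KR-MYB (limma adjusted p under 0.01), and the part of this in the results below was not tested. Of markers of other cell types, MS4A1 and KRT14 were listed at 0, CD3E, CD14, CSF1R and KRT5 stayed under 1 FPKM, and COL1A1 and COL1A2 reached at most 2.86 FPKM. MYB, whose value counts endogenous and introduced transcripts together and so does not check the knockdown, stood at 69.0, 61.2 and 67.5 FPKM with 2KR-MYB and at 53.6, 55.3 and 62.0 FPKM with ANAA-MYB. The groups overlapped, and the log2 fold change was 0.21 (SE 0.070, adjusted p = 0.062 by limma).

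FPKM corrects for transcript length, so levels can be compared roughly between genes. The annotation that was counted, on which such a comparison also rests, is not given in the sources used here. The 41 tested G2 and mitosis genes had a median of 64.5 FPKM, against 13.6 FPKM over all 12634 tested genes. CDK1 and PTTG1, the gene of securin, were the most abundant members, with means over the 6 libraries of 222 and 221 FPKM. They were followed by CKS1B (172 FPKM), PLK1 (155 FPKM) and CCNB1 (153 FPKM). At the lower end stood the MuvB subunit LIN54 (13.1 FPKM), CDC25B (15.1 FPKM), CDC25C (17.6 FPKM) and the centromeric histone CENPA (17.8 FPKM). The libraries of CDK1 and PTTG1 overlapped, as did those of CDC25C and CENPA. KIF4B, an intronless copy of KIF4A, reached at most 0.0831 FPKM, and PTTG2 and PTTG3P, copies of PTTG1, were listed at 0. Reads can be split among such copies, so the values of KIF4A and PTTG1 are uncertain to that extent.

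UBE2C, the E2 enzyme that starts ubiquitin chains for the anaphase-promoting complex, was the member that was not tested, since its mean did not reach 1 FPKM. It was listed at 0.702, 0.543 and 0.891 FPKM with 2KR-MYB and at 0.474, 0.484 and 0.371 FPKM with ANAA-MYB. UBE2S, the E2 enzyme that extends the chains, was between 56.8 and 69.6 FPKM in the same libraries. The cause of the low values of UBE2C was not tested.

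**Figure D1:**
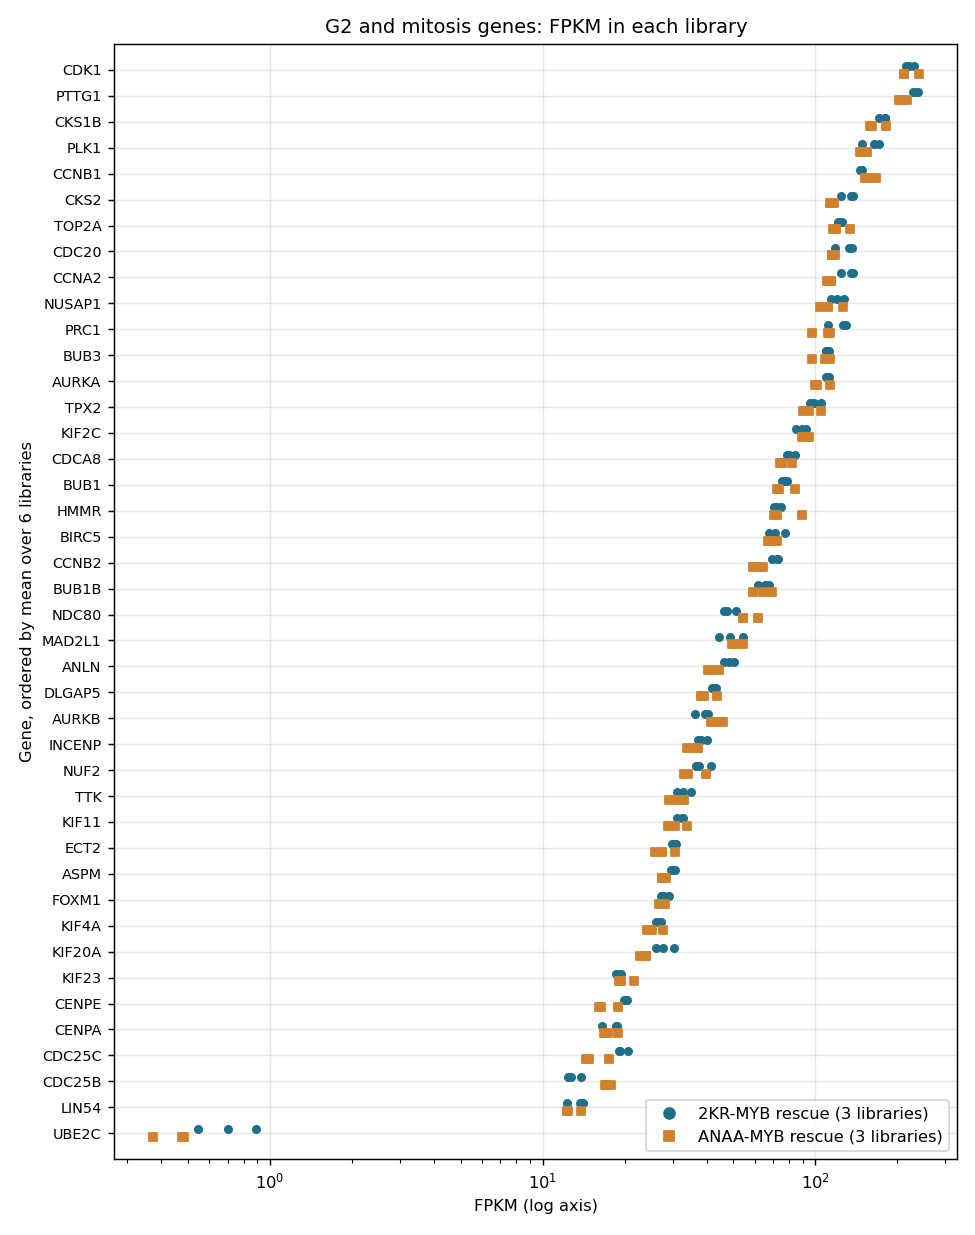
FPKM of the 42 G2 and mitosis genes in each library (log axis), ordered by the mean over the 6 libraries, with circles for the 3 libraries of the 2KR-MYB rescue and squares for the 3 of the ANAA-MYB rescue. CDK1 and PTTG1 are at the top with means of 222 and 221 FPKM, and UBE2C lies alone below 1 FPKM.

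The main comparison asks whether these genes differ between cells rescued by a MYB that cannot be SUMOylated and cells rescued by a MYB that cannot bind SUMO. CDC25B, which activates CDK1 at the onset of mitosis, was lower with 2KR-MYB and was 1 of the 41 tested genes to pass the threshold (2.44%). Of all 12634 tested genes 13.0% passed, 7.42% as lower and 5.57% as higher with 2KR-MYB, so that 42.9% of the calls were higher, or 54.5% after upper quartile scaling. Changes are differences of log2(FPKM + 1), 2KR-MYB minus ANAA-MYB, which understates changes of low genes, and the threshold is a limma adjusted p of 0.01 over all tested genes. The call of CDC25B was lost without 2KR-MYB replicate 1 (adjusted p = 0.012 by limma) and without ANAA-MYB replicate 2 (0.013), within a range of 0.0019 to 0.013 across the alternatives. After upper quartile scaling, and after quantile normalization, CCNA2, CCNB2, CDC25C and PTTG1 passed too, all as higher, which makes 5 of 41. Under these scalings 1741 and 1710 of all 12634 tested genes passed.

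The differences of the members were small. Their median absolute log2 fold change was 0.085, and that of all tested genes 0.14. The 95% intervals of the 40 genes that did not pass reached from -0.38 (NDC80) to 0.50 (CDC25C), and 27 of them included 0. The median log2 fold change of the members was 0.066, against -0.015 for all tested genes. It was above 0 in 33 of the 41 members and in 46.8% of all tested genes, and in 27 to 33 members with a library left out, the lowest without ANAA-MYB replicate 1. The 3 libraries of one rescue lay entirely above those of the other in 13 of the 41 members (31.7%), 9 of them higher with 2KR-MYB, and in 44.9% of all tested genes. At an adjusted p under 0.05 in limma 9 of the 41 passed, 7 higher and 2 lower, against 26.9% of all tested genes. With 3 libraries against 3, an exact two-sided permutation test of a single gene cannot give a p below 0.1.

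**Figure D2:**
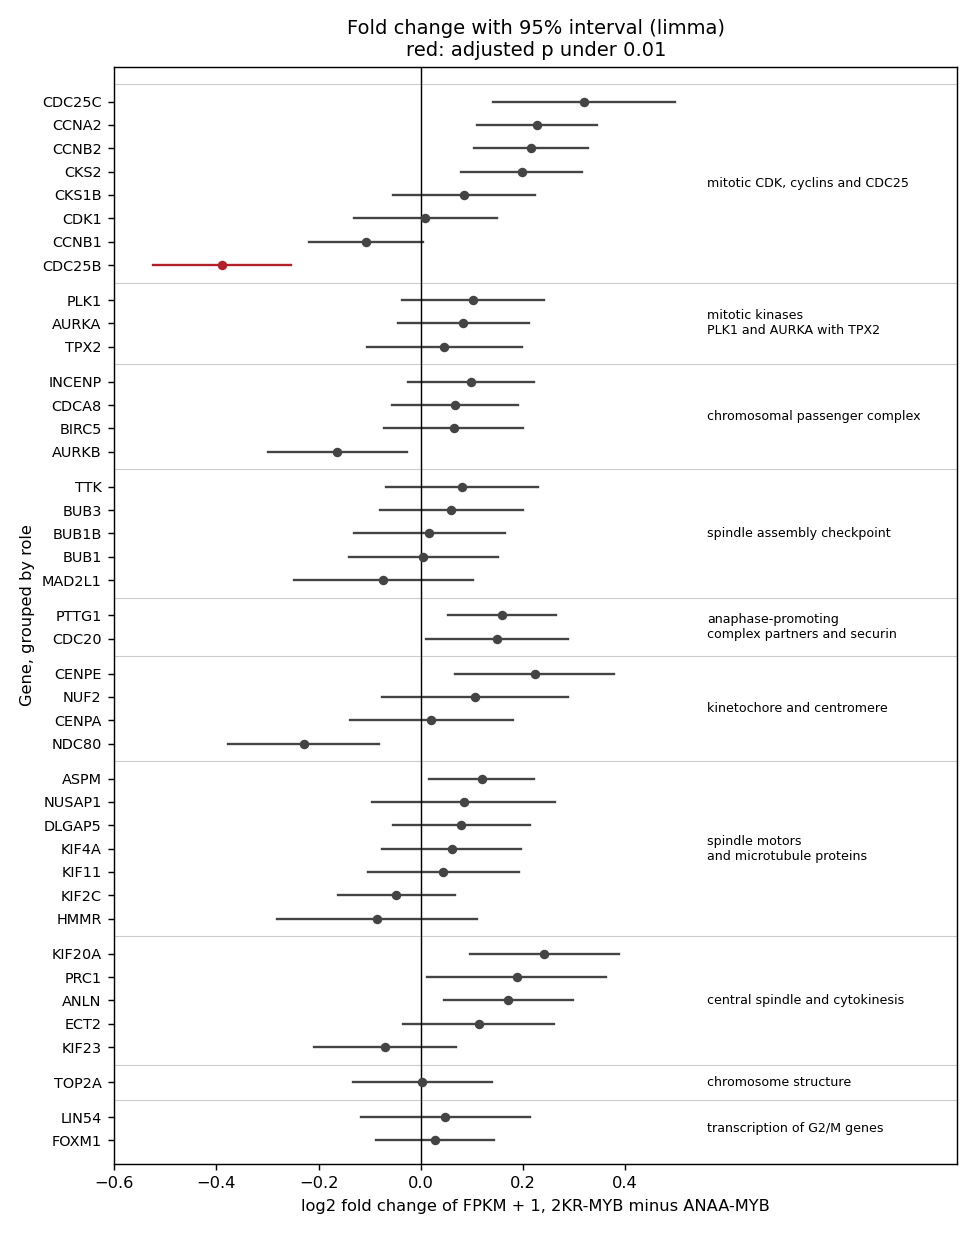
Log2 fold change (2KR-MYB minus ANAA-MYB, on FPKM + 1) of the 41 tested G2 and mitosis genes, grouped by role, with points for limma estimates from 3 libraries against 3 and lines for 95% intervals. CDC25B at -0.39 is the red point past an adjusted p of 0.01, and CDC25C at 0.32 lies at the other end of the same group.

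Among CDK1 and its direct regulators the CDC25 phosphatases stood at opposite ends. CDC25B (ENSG00000101224, chromosome 20, 3786951 to 3806115 in RefSeq on GRCh38.p14) stood at 12.7, 13.8 and 12.4 FPKM with 2KR-MYB and at 17.0, 17.8 and 17.0 FPKM with ANAA-MYB. All 2KR-MYB libraries lay below all ANAA-MYB libraries, by -0.39 on the log2 scale (SE 0.059, adjusted p = 0.0025 by limma). CDC25C (ENSG00000158402, chromosome 5, 138285265 to 138338355), which dephosphorylates CDK1 bound to cyclin B, stood at 19.0, 19.3 and 20.6 FPKM with 2KR-MYB and at 14.8, 14.5 and 17.5 FPKM with ANAA-MYB. Here the 2KR-MYB libraries were the higher ones, with a log2 fold change of 0.32 (SE 0.077, adjusted p = 0.019 by limma) that missed the threshold. Without ANAA-MYB replicate 3 the value was 0.40 and passed (adjusted p = 0.0056 by limma).

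The cyclins also stood on both sides of 0. CCNA2, cyclin A2, stood at 135, 138 and 124 FPKM with 2KR-MYB and at 110, 114 and 114 FPKM with ANAA-MYB. CCNB2, cyclin B2, stood at 72.1, 73.0 and 69.5 FPKM with 2KR-MYB and at 61.4, 64.2 and 58.9 FPKM with ANAA-MYB. Both had higher values in all 2KR-MYB libraries, with log2 fold changes of 0.23 (SE 0.051) and 0.22 (SE 0.049) and an adjusted p of 0.014 each by limma. CCNB1, cyclin B1, was at 147 ± 1.27 FPKM with 2KR-MYB and at 158 ± 7.87 FPKM with ANAA-MYB (SD, n = 3 each). Its libraries were also apart but in the other direction, and its log2 fold change was -0.11 (SE 0.048, adjusted p = 0.14 by limma).

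CDK1 itself stood at 221, 230 and 216 FPKM with 2KR-MYB and at 211, 212 and 240 FPKM with ANAA-MYB. These overlap, and the 95% interval of the log2 fold change was -0.13 to 0.15. The CKS proteins are small partners of CDK1. CKS2 was at 132 ± 7.28 and 115 ± 2.16 FPKM (SD, n = 3 each) with libraries apart (log2 fold change 0.20, adjusted p = 0.025 by limma), while CKS1B overlapped (0.085, adjusted p = 0.34).

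PLK1 and AURKA are kinases that mature the spindle poles and promote mitotic entry, and TPX2 activates AURKA on microtubules. PLK1 was at 161 ± 11.7 FPKM with 2KR-MYB and at 150 ± 4.69 FPKM with ANAA-MYB (SD, n = 3 each). AURKA was at 111 ± 1.43 and 105 ± 7.27 FPKM, and TPX2 at 99.9 ± 4.82 and 96.9 ± 7.72 FPKM, in the same order. All 3 genes had overlapping libraries, and their log2 fold changes were 0.10, 0.083 and 0.046.

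The chromosomal passenger complex corrects wrong attachments at centromeres and then moves to the central spindle. It consists of the kinase AURKB with INCENP, BIRC5 (survivin) and CDCA8 (borealin). AURKB stood at 36.3, 40.5 and 39.4 FPKM with 2KR-MYB and at 45.7, 43.2 and 41.5 FPKM with ANAA-MYB. Its libraries did not overlap, and the log2 fold change of -0.16 (SE 0.059, adjusted p = 0.075 by limma) did not pass. The other subunits overlapped, with log2 fold changes of 0.098 (INCENP), 0.064 (BIRC5) and 0.066 (CDCA8).

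In the spindle assembly checkpoint all 5 genes overlapped between the rescues, while 44.9% of all tested genes had libraries apart. BUB1, a kinase that recruits checkpoint proteins to kinetochores, was at 77.0 ± 1.34 and 76.9 ± 6.65 FPKM, and BUB1B, which encodes BUBR1, at 64.8 ± 2.78 and 64.2 ± 4.97 FPKM (SD, n = 3 each). BUB3, which carries both to kinetochores, had a log2 fold change of 0.059, MAD2L1, an inhibitor of CDC20, one of -0.073, and TTK, the kinase MPS1, one of 0.081.

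CDC20, the activator of the anaphase-promoting complex that the checkpoint inhibits, stood at 133, 137 and 118 FPKM with 2KR-MYB and at 115, 115 and 118 FPKM with ANAA-MYB. The lowest 2KR-MYB library lay just below the highest ANAA-MYB library, and the log2 fold change was 0.15 (SE 0.060, adjusted p = 0.10 by limma). PTTG1, whose product holds separase inactive until anaphase, stood at 228, 237 and 236 FPKM with 2KR-MYB and at 203, 217 and 208 FPKM with ANAA-MYB. Its libraries were apart, with a log2 fold change of 0.16 (SE 0.046, adjusted p = 0.036 by limma).

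At the kinetochore NDC80 and NUF2 form the heterodimer that grips microtubules, CENPE is a motor that carries chromosomes to the spindle equator, and CENPA marks the centromere. NDC80 (ENSG00000080986, chromosome 18, 2571557 to 2616635) stood at 47.3, 51.0 and 46.3 FPKM with 2KR-MYB and at 54.5, 54.2 and 61.5 FPKM with ANAA-MYB. All 2KR-MYB libraries were lower, by -0.23 on the log2 scale (SE 0.064, adjusted p = 0.032 by limma). CENPE stood at 20.2, 19.9 and 20.3 FPKM with 2KR-MYB and at 16.1, 16.4 and 18.9 FPKM with ANAA-MYB. It was apart the other way (0.22, SE 0.067, adjusted p = 0.043 by limma) and passed without ANAA-MYB replicate 3 (0.29, adjusted p = 0.0098). NUF2 and CENPA overlapped, with log2 fold changes of 0.11 and 0.021.

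The values of NDC80 moved with those of its chromosomal neighbours. Of 22 other tested genes within 5 Mb on chromosome 18, 21 had a log2 fold change below 0, and their median was -0.37. Around CDC25B 36 of 50 neighbours were below 0, with a median of -0.10. Of all 12634 tested genes 6720 were below 0. For the other 39 tested members this median lay between -0.1 and 0.1, with LIN54 highest at 0.077. The part of the neighbourhood in the values of NDC80 and CDC25B was not tested.

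Among the spindle motors and microtubule proteins, KIF11, the motor that pushes the spindle poles apart, was at 32.1 ± 0.949 and 31.1 ± 2.55 FPKM, and KIF2C, which removes tubulin at kinetochores, at 89.0 ± 4.02 and 92.0 ± 2.70 FPKM (SD, n = 3 each). ASPM, a spindle pole protein, stood at 29.5, 30.6 and 30.4 FPKM with 2KR-MYB and at 27.5, 27.4 and 28.3 FPKM with ANAA-MYB. It was the 1 gene of 7 in this group with libraries apart (14.3%, against 44.9% of all tested genes). Its log2 fold change was 0.12 (SE 0.045, adjusted p = 0.086 by limma). HMMR, a microtubule-bound protein of the spindle, was at 72.6 ± 2.26 and 77.5 ± 10.1 FPKM (SD, n = 3 each), the wider spread coming from 89.1 FPKM in ANAA-MYB replicate 3. The chromosome motor KIF4A and the spindle proteins DLGAP5 and NUSAP1 overlapped, with log2 fold changes of 0.060, 0.079 and 0.084.

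The 5 genes of the central spindle and cytokinesis had a median log2 fold change of 0.17. KIF20A, a motor that brings the passenger complex to the central spindle, stood at 26.0, 30.3 and 27.7 FPKM with 2KR-MYB and at 23.9, 23.8 and 22.7 FPKM with ANAA-MYB. ANLN, anillin of the contractile ring, stood at 48.3, 50.2 and 46.2 FPKM with 2KR-MYB and at 40.3, 43.6 and 44.3 FPKM with ANAA-MYB. Both were apart, with log2 fold changes of 0.24 and 0.17 and an adjusted p by limma of 0.026 and 0.052. PRC1, which bundles antiparallel microtubules, and ECT2, which activates RHOA at the cell equator, had values of 0.19 and 0.11 with overlapping libraries, and KIF23, the motor of centralspindlin, one of -0.071. TOP2A, which untangles sister chromatids, was at 123 FPKM on average in both rescues, with a 95% interval of -0.13 to 0.14.

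The transcription factors among the members overlapped as well. FOXM1 stood at 27.1, 27.8 and 29.2 FPKM with 2KR-MYB and at 28.2, 26.6 and 27.6 FPKM with ANAA-MYB. LIN54, the MuvB subunit that binds the CHR, was at 13.3 ± 0.935 and 12.9 ± 0.846 FPKM (SD, n = 3 each). The 95% intervals of their log2 fold changes were -0.089 to 0.14 and -0.12 to 0.21. MYBL2, no member of the list, was at 42.9, 48.0 and 49.0 FPKM for 2KR-MYB and 49.5, 48.8 and 51.7 FPKM for ANAA-MYB, with a log2 fold change of -0.10 (adjusted p = 0.25 by limma).

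Ratios within a library do not depend on the scaling between libraries, and they were taken for 7 pairs of partners or relatives chosen with the values above known. CDC25B to CDC25C was 0.670, 0.717 and 0.600 with 2KR-MYB and 1.15, 1.23 and 0.972 with ANAA-MYB. CCNB1 to CCNB2 was 2.055 ± 0.0704 and 2.58 ± 0.221 (SD, n = 3 each). NDC80 to NUF2 was 1.26 ± 0.0174 and 1.59 ± 0.0532 (SD, n = 3 each). In these pairs and in AURKB to INCENP, which was 0.909, 1.09 and 1.03 with 2KR-MYB and 1.35, 1.19 and 1.12 with ANAA-MYB, the 2KR-MYB ratios were all lower. CKS1B to CKS2, AURKA to TPX2 and BUB1 to BUB3 overlapped. No test is given, and for CDC25B to CDC25C and CCNB1 to CCNB2, where the genes lay apart in opposite directions, the order of the ratios follows from the values of the single genes.

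Within each rescue many of these genes moved together from library to library. With 2KR-MYB, replicate 2 held the highest value for 30 of the 41 tested members (73.2%) and for 35.5% of all tested genes. With ANAA-MYB, replicate 3 was highest for 26 members (63.4%) and for 40.5% of all tested genes, and replicate 1 was lowest for 26 members (63.4%) and for 38.3% of all. The median deviation of the members from the mean of their rescue, on log2(FPKM + 1), was 0.054 in ANAA-MYB replicate 3 and -0.061 in ANAA-MYB replicate 1, while over all tested genes it was 0.011 and -0.014. The summed FPKM of the 42 genes was 3136, 3259 and 3101 with 2KR-MYB and 2910, 3028 and 3129 with ANAA-MYB. These sums overlap (exact two-sided permutation test, p = 0.2). As a share of the FPKM of each library, however, they made up 0.5408, 0.5415 and 0.5199% with 2KR-MYB and 0.4987, 0.4793 and 0.4938% with ANAA-MYB, which are fully apart, so the overlap of the sums depends on the scaling between libraries.

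Other cell cycle genes were read in lists around the members. Of all 12634 tested genes 13.0% passed the threshold in limma and 26.9% had an adjusted p under 0.05. None of the 11 regulators of mitotic entry passed in limma, where 2 (18.2%) had an adjusted p under 0.05. These were PLK4, higher with 2KR-MYB (log2 fold change 0.25, adjusted p = 0.028 by limma), and PKMYT1, which was lower. The nearest was PKMYT1, a kinase that holds CDK1 inactive, named after its values were seen, at 34.1 ± 3.19 and 44.7 ± 3.37 FPKM (SD, n = 3 each, adjusted p = 0.0102 by limma). It passed as lower with a pseudocount of 0.1 (0.0098) and with a filter at 5 FPKM (0.0081), within a range of 0.0081 to 0.044 across the alternatives. None of the 11 tested genes of the DREAM and MuvB complexes passed, and the median log2 fold change of the 11 was -0.10. Of these 11 genes 3 (27.3%) had an adjusted p under 0.05 in limma, LIN9, E2F5 and TFDP1, all as lower with 2KR-MYB. Of 17 subunits and regulators of the anaphase-promoting complex 1 passed (5.88%). This was ANAPC16, at 60.7 ± 1.83 FPKM with 2KR-MYB and 50.2 ± 2.82 FPKM with ANAA-MYB (SD, n = 3 each, adjusted p = 0.0085 by limma).

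Of 29 other kinetochore genes 2 passed (6.90%, against 13.0% of all tested genes). CENPW was higher with 2KR-MYB (29.3 ± 1.11 and 21.5 ± 2.15 FPKM, SD, n = 3 each, log2 fold change 0.44, adjusted p = 0.0041 by limma). SPC24, a subunit of the NDC80 complex, was lower (9.46 ± 1.09 and 13.4 ± 0.802 FPKM, SD, n = 3 each, log2 fold change -0.46, adjusted p = 0.0057 by limma), a call lost after upper quartile scaling. The calls of ANAPC16, CENPW and SPC24 did not hold with most libraries left out. None of 20 condensin and cohesin genes passed, where 5 had an adjusted p under 0.05 in limma. After upper quartile scaling and after quantile normalization SMC4, NCAPD2, NCAPG and NCAPG2, all subunits of condensin, passed as higher. Under these scalings 1741 and 1710 of all 12634 tested genes passed. Other condensin subunits had log2 fold changes below 0 in the main comparison. NCAPH (-0.15) and NCAPD3 (-0.12) were lower with 2KR-MYB with libraries apart. SMC2 (-0.10) and NCAPH2 (-0.095) had overlapping libraries. Of 21 other spindle and cytokinesis genes none passed, where 2 (9.52%) had an adjusted p under 0.05 in limma, CKAP2 as higher and FAM83D as lower.

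Among 24 genes of G1 and S phase 5 were lower with 2KR-MYB and none higher (20.8%). Of all tested genes 13.0% passed, 7.42% as lower. In this list 20 of the 24 had a log2 fold change below 0, with a median of -0.12. Of all 12634 tested genes 6720 were below 0, with a median of -0.015. CCND1, cyclin D1, was at 0.458 ± 0.113 and 3.08 ± 0.116 FPKM (SD, n = 3 each), low in both rescues but apart (log2 fold change -1.49, adjusted p = 7.6e-05 by limma). It reached the filter of 1 FPKM only through its ANAA-MYB libraries, so its direction is tied to its being tested. With no filter it passed too (adjusted p = 0.0017 by limma). At a filter of 5 FPKM it was not tested, and 4 genes of the list passed. CCNE1, cyclin E1, was at 16.9 ± 0.267 and 22.9 ± 1.06 FPKM, and CDK6, a partner of D cyclins, at 32.9 ± 0.668 and 41.5 ± 2.96 FPKM (SD, n = 3 each). RRM2 and TYMS, which supply deoxynucleotides, were at 106 ± 4.01 and 147 ± 7.73 FPKM and at 75.2 ± 4.92 and 114 ± 3.86 FPKM (SD, n = 3 each), with log2 fold changes of -0.47 and -0.60 and an adjusted p by limma of 0.00072 and 0.00033. TYMS is one of the chromosome 18 neighbours of NDC80.

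Of 5 tested CDK inhibitors 2 passed the threshold, both as higher with 2KR-MYB than with ANAA-MYB. The share passing over all tested genes was 13.0%, with 5.57% as higher. CDKN1A, p21, was at 9.73 ± 1.10 and 3.66 ± 0.334 FPKM (SD, n = 3 each), apart, with a log2 fold change of 1.20 (SE 0.095, adjusted p = 0.00014 by limma). CDKN1B, p27, stood at 25.2, 25.7 and 24.1 FPKM with 2KR-MYB and at 20.7, 20.8 and 20.7 FPKM with ANAA-MYB, also apart, with a log2 fold change of 0.26 (SE 0.047, adjusted p = 0.0061 by limma). The call of CDKN1B was lost whichever of the 6 libraries was left out, and that of CDK6 held only without ANAA-MYB replicate 1. CDKN2A and CDKN2B were listed at 0 in all 6 libraries. Differences between the lists were not tested.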

How the data were processed

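Stranded poly(A) libraries were sequenced by the authors as 150 bp pairs. Per the submitters' processing notes the tools were bcl2fastq 2.18.0.12, Trimmomatic 0.36, TopHat2 2.1.1, Cufflinks and Cuffdiff 2.2.1, with GRCh38, and the authors deposited FPKM for each gene and library. Which annotation was counted, and how libraries were scaled, is not given in the sources used here. The 12 other columns of per-sample values were not used. Depth is unknown: of the ratios between libraries among values under 0.5 FPKM, at most 7.40% lay within 1% of a common value, so no reads were recovered. Each library summed to between 579920 and 633662 FPKM.

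Symbols were matched for 55854 of 58288 gene IDs, and positions and promoters came from RefSeq (GRCh38.p14). A gene was tested where its mean over all libraries reached 1 FPKM, on log2(FPKM + 1), using limma 3.58.1 (R 4.3.3) with a trended prior and Benjamini-Hochberg adjustment. Single values were compared by exact two-sided permutation tests. All members are named, and up to 4 genes past the threshold of each other list, by smallest adjusted p, plus any counted among 5 or fewer. A few other genes are named for comparison. The members and lists were chosen with earlier results of these data known. The alternatives were a pseudocount of 0.1, no filter, a filter at 5 FPKM, upper quartile scaling, quantile normalization, a replicate block, leaving out a library, and a threshold of 0.05. Some marker genes are not reported here. The fit was tested on simulated data, in which fewer genes were changed than passed in the real data. Of genes changed by a log2 fold change of 0.5, 37% passed the threshold, and of those changed by 1.0, 85%. Without any changed gene none passed. Figures were drawn with Python 3.11.15 and matplotlib 3.10.9.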

Additional observations from a re-analysis of the deposited data

How the results depend on the processing

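The number of all tested genes past the threshold was 1642, and 942 with no filter on low values. It was 1741 after upper quartile scaling and 1710 after quantile normalization. At an adjusted p under 0.05 it was 3402, and with a library left out between 852 and 1204. Of the 1642 genes 42.9% were higher with 2KR-MYB, and of the 1741 after upper quartile scaling 54.5%. Among the G2 and mitosis genes 1 passed, 5 after upper quartile scaling and 5 after quantile normalization, 9 at an adjusted p under 0.05 and between 0 and 3 with a library left out: 0 without the first 2KR-MYB or the second ANAA-MYB replicate, 2 without the third 2KR-MYB replicate (CCNA2 and CDC25B) and 3 without the third ANAA-MYB replicate (CDC25B, CDC25C and CENPE). The median log2 fold change of these genes stayed between 0.047 and 0.105 with a library left out, and was 0.11 and 0.12 under the scalings. Of the other cell cycle genes 10 passed, 6 with no filter, 33 at an adjusted p under 0.05 and 5 or 6 with a library left out. The count was 13 after upper quartile scaling, 14 after quantile normalization and 7 with the replicate block. Over all tested genes 13.0% passed, and 26.9% at an adjusted p under 0.05. CCND1, CCNE1, RRM2, TYMS and CDKN1A passed whichever library was left out, and with the block and no filter. ANAPC16 and CDKN1B missed the threshold whichever of the 6 libraries was left out (adjusted p of 0.014 to 0.035 and 0.010 to 0.028 by limma). SPC24, CENPW and CDK6 each passed with only 1 of the libraries left out: SPC24 without 2KR-MYB replicate 1 (0.0035), CENPW without ANAA-MYB replicate 2 (0.0031) and CDK6 without ANAA-MYB replicate 1 (0.0096). The cause of these shifts was not tested. With the replicate number as a block 1089 genes and 1 G2 and mitosis gene passed; same-numbered libraries did not deviate together (r of -0.052, -0.035 and -0.0026), and no label ties the numbers to a shared culture, so the numbers were not taken as pairing.

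Differences near 0 changed sign, none of them past the threshold: KIF2C was at 0.0081 after quantile normalization, and with a library left out the log2 fold change reached from -0.023 to 0.069 for CDK1, -0.0041 to 0.11 for TPX2, -0.037 to 0.073 for BUB1, -0.039 to 0.071 for BUB1B, -0.0037 to 0.11 for BUB3, -0.013 to 0.078 for CENPA, -0.0071 to 0.105 for KIF11, -0.15 to 0.018 for HMMR, -0.038 to 0.064 for TOP2A and -0.0011 to 0.050 for FOXM1. Read depth is unknown, so it sets no limit that could be stated here.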
